A study of Mus musculus with 3 samples.

Results

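Lymphoid cells of the mouse hindstomach, the glandular part of the stomach, were examined late in gestation in single-cell RNA data. They were chosen by their measured UMI counts (unique molecular identifiers, each 1 tagged mRNA molecule): a cell counted as lymphoid when it held at least 1 UMI of 2 or more among Cd3e, Cd7, Il7r, Trbc2, Nkg7 and Cd79a, and at most 2 UMIs of C1qa, C1qb and C1qc together. These were 142 of 21602 cells that had at least 500 detected genes and at most 20% mitochondrial UMIs. The YAP5SA library held 39 of them, the Yap knockout library 74 and the control library 29. The embryos, at embryonic day 18.5, carried Shh-Cre;YAP5SA, Shh-Cre;YaploxP/loxP or Shh-Cre alone, so every library carries the Cre. Shh-Cre is a recombinase driven by a gene of the gut epithelium, and YAP5SA is a YAP protein that Hippo kinases cannot switch off. Lymphoid cells are therefore not the cells in which these alleles are recombined by design. Each genotype is 1 library, and the labels do not say how many embryos were pooled in it. Differences between genotypes are therefore differences between single libraries, with no test, and the intervals cover counting error only.

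Lymphoid cells descend from a progenitor that depends on the interleukin 7 receptor. T cells and B cells carry rearranged antigen receptors. Natural killer (NK) cells and innate lymphoid cells (ILCs) carry none and are sorted by the cytokines they make: interferon gamma in group 1, interleukins 5 and 13 in group 2, interleukins 17 and 22 in group 3. Lymphoid tissue inducer cells, a fetal form related to group 3, start lymph nodes and Peyer's patches through lymphotoxin. In the fetal gut, before microbes arrive, innate lymphoid cells form a large part of the lymphoid cells.

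The lymphoid cells had a median of 5957 UMIs in the YAP5SA library, 7451 in the Yap knockout library and 6410 in the control library, with 2560, 2710 and 2575 detected genes. Mitochondrial UMIs took a median of 0.915%, 0.550% and 1.15%. Yap1 itself had 8 UMIs (32.9 CPM, scaled to the total UMIs of the same cells) in YAP5SA, 14 (19.3 CPM) in Yap knockout and 4 (19.6 CPM) in control lymphoid cells. In all other cells Yap1 stood at 54.1, 43.5 and 53.9 CPM, a check of little weight, since tags from the 3′ end may lie outside the altered part of the gene. Names given to cells in the files overlapped between libraries, 2409 of them between YAP5SA and control, but they are running labels and not barcode sequences. No shared name had equal UMI totals in both libraries, and no lymphoid cell shared its name with a lymphoid cell of another library.

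The limit on C1q, a complement protein made by macrophages, did not act evenly. It kept out 31 of 70 YAP5SA, 5 of 79 Yap knockout and 4 of 33 control cells that had 2 or more of the marker genes. The 31 YAP5SA cells had a median of 5 C1q UMIs, and 16 of them had 3 to 5. C1q RNA was found in cells that should lack it: 39.3% of YAP5SA, 7.41% of Yap knockout and 10.1% of control collagen-rich cells without Ptprc also exceeded 2 C1q UMIs. Cells with 10 or more C1q UMIs made up 12.3% of YAP5SA, 5.29% of Yap knockout and 4.86% of control cells. Just inside the limit, 13 YAP5SA, 7 Yap knockout and 3 control members had exactly 2 C1q UMIs, and just outside it 5, 3 and 1 cells had exactly 3. At the other threshold, 28 YAP5SA, 54 Yap knockout and 20 control members had exactly 2 marker genes, while 193, 217 and 171 cells had 1 marker gene and stayed out. Of the members with exactly 2 marker genes, 89.2% had at least 3 of 12 genes shared by leukocytes, against 38.4% of cells with 1 marker gene and 12.4% of cells with none.

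Lymphoid cells made up 0.432% of YAP5SA cells (95% exact Clopper-Pearson interval 0.307 to 0.590), 1.42% of Yap knockout cells (1.12 to 1.78) and 0.393% of control cells (0.264 to 0.564). The share in the Yap knockout library was 3.62 times that in the control library (exact interval of the ratio 2.33 to 5.76). The share in the YAP5SA library was 1.10 times that in control, with an interval of 0.662 to 1.84 that includes 1. For Yap knockout the ratio stayed between 2.06 and 4.91 under each setting tried. For YAP5SA it changed direction with the setting. Without the C1q limit the YAP5SA share was 0.775%, against 0.448% in control. With C1q at 0 UMIs it was 0.0886%, against 0.203% in control. A library's share also depends on how many epithelial and stromal cells were recovered. Among cells with a Ptprc UMI (Ptprc encodes CD45, the surface protein of blood cells), lymphoid cells were 1.41% in YAP5SA, 8.32% in Yap knockout and 4.04% in control, and the YAP5SA library held 1062 such cells, against 469 in Yap knockout and 297 in control.

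**Figure D1:**
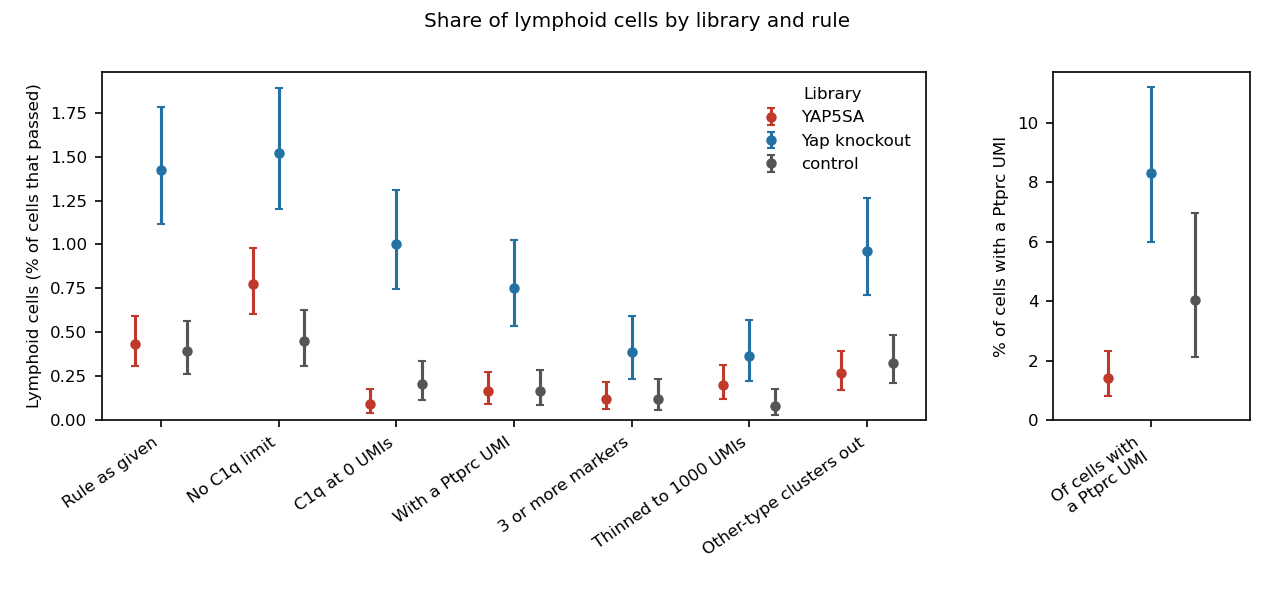
Lymphoid cells as a share of cells (y axis, %) in the YAP5SA, Yap knockout and control libraries under the rule as given and 6 other rules, and in the right panel as a share of cells with a Ptprc UMI. Points are libraries and bars exact 95% counting intervals; the Yap knockout point is the highest in each setting, while YAP5SA lies above, near or below control (0.432% against 0.393% under the rule as given).

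Among genes of the T cell receptor complex, Cd3e, Cd3d and Trac were sparse, while Trbc2, Trbc1 and Cd3g were more widely seen. Trbc2, the constant segment of the T cell receptor beta chain, which innate lymphocytes also transcribe, had a UMI in 29 of 39 YAP5SA, 53 of 74 Yap knockout and 23 of 29 control members. Trbc1, of the same chain, was seen in 12, 31 and 12 members. Il7r, the interleukin 7 receptor, was seen in 25, 53 and 20 of them. Cd3e, a subunit that every mature T cell needs to display its receptor, was seen in 1 YAP5SA, 2 Yap knockout and 3 control members. Its partners Cd3d (0, 3 and 1 members) and Trac, the alpha chain constant segment (1, 3 and 0 members), were as sparse, and Cd6 had 0 UMIs. These 3 genes were singled out after their values were seen. Cd3g, another subunit, was less sparse. In the clusters described below it was seen in 11 of 19 ILC2-like, 8 of 15 unnamed and 6 of 12 NK and ILC1-like cells. In the ILC3-like clusters it was seen in 1 of 24 and 0 of 21 cells. Cd7, carried by T, NK and innate lymphoid cells, was seen in 19 YAP5SA, 36 Yap knockout and 7 control members. Nkg7, a protein of cytotoxic granules, was seen in 10, 25 and 12, and Cd79a, a signalling chain of the B cell receptor, in 6, 4 and 4. The most frequent combination was Il7r with Trbc2 and no other marker gene, in 11 YAP5SA, 25 Yap knockout and 9 control members. Of 12 genes shared by leukocytes, at least 3 were detected in 34 of 39 YAP5SA, 69 of 74 Yap knockout and 28 of 29 control members. These genes cannot tell lymphoid cells from other leukocytes. In the clusters described below, 6 of 6 basophil-like members and 14 of 15 members of the group led by MHC class II genes also reached 3. At least 2 of 19 T cell genes were detected in 71.8%, 82.4% and 79.3% of members, against 2.57%, 1.65% and 1.76% of collagen-rich cells. This list holds Trbc2 and Cd3e of the rule, and Trbc2 alone had 481 CPM in YAP5SA, 481 in Yap knockout and 442 in control.

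**Figure D2:**
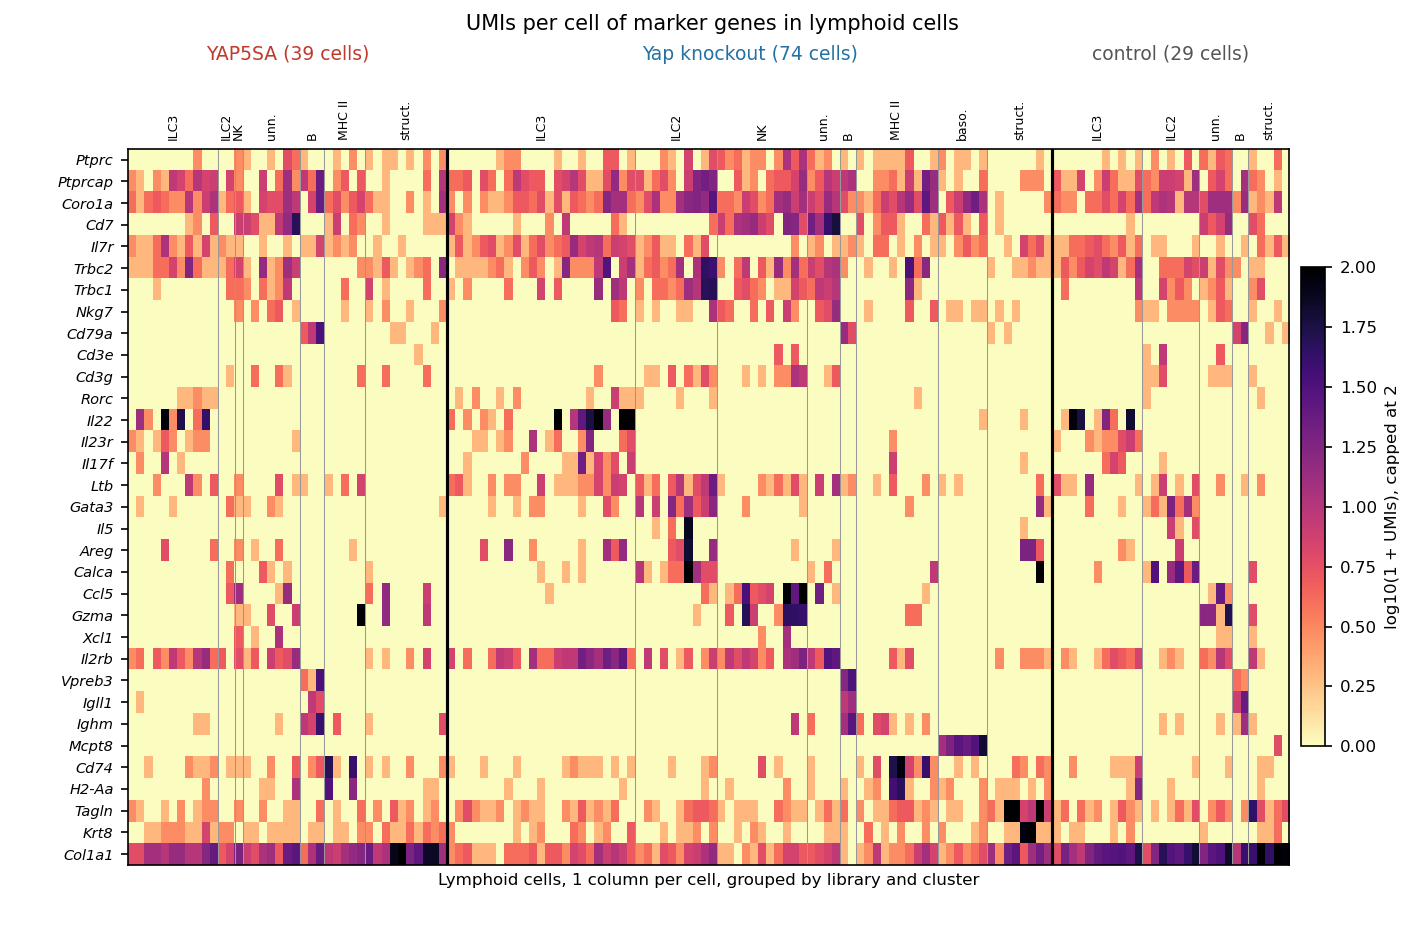
UMIs of marker genes (rows) in each of the 142 lymphoid cells (columns), as log10(1 + UMIs) capped at 2, ordered by library and then by the cluster named above each block: ILC3, ILC2, NK, unnamed (unn.), B lineage, cells led by MHC class II genes (MHC II), basophil-like (baso.) and structural genes (struct.). Trbc2 and Il7r run through most columns, Cd3e through 6 of 142, and Il22 is high in few cells.

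Set against all other cells of the same library, the lymphoid cells stood out most by cytokine, receptor and signalling genes of lymphocytes and other leukocytes. Of 2321 genes measured at 100 CPM or more in lymphoid or other cells, 222 (9.56%) were at least 2-fold higher in lymphoid cells of each library. Here and in what follows, 2-fold is counted after adding 10 CPM to both sides, and a gene is called measured in a contrast if it reached 100 CPM on either side. Of 1742 genes measured between YAP5SA and control lymphoid cells, 7.23% were at least 2-fold higher and 2.81% at least 2-fold lower, and of 1659 between Yap knockout and control, 6.75% and 6.09%. Counts of listed genes are read against these shares. The folds of the marker genes follow from the rule and are no finding. Il22, the cytokine of group 3 cells that acts on epithelium, led the list at 838 CPM in YAP5SA lymphoid cells, 1059 in Yap knockout and 1139 in control lymphoid cells, against 2.99, 3.77 and 1.70 CPM in the other cells. Il22 came from few cells: 7 YAP5SA, 15 Yap knockout and 7 control members had any, and the highest cell held 44.6%, 42.5% and 37.9% of its UMIs. Gzma, a granule protease, was likewise seen in 7, 10 and 5 members, with 72.5%, 24.9% and 58.6% of its UMIs in 1 cell.

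Receptors were more widely spread. Il2rb, a chain of the receptors for interleukins 2 and 15, had 423 CPM in YAP5SA, 506 in Yap knockout and 279.7 in control lymphoid cells and was seen in 22, 47 and 17 of them. Il2rg, the chain shared by this receptor family and by the interleukin 7 receptor, had 283, 268 and 329 CPM, in 25, 55 and 24 cells. Other cells had 7.82 to 14.8 CPM of Il2rg. Tnfrsf9, the costimulatory receptor 4-1BB, had 394, 316 and 137 CPM and was at least 2-fold higher in both altered libraries than in control. Pdcd1, the inhibitory receptor PD-1, had 189, 195 and 113 CPM, against 0.312 to 0.848 CPM in other cells. Itgb7, an integrin subunit used in homing to the gut, had 173, 220.1 and 260.1 CPM.

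Adaptors and regulators were also among the 20 highest genes. Ptprcap, a partner of CD45, and Cd37, a leukocyte tetraspanin, were each seen in at least 61.5% of the members of each library. Ikzf3, the transcription factor Aiolos, had 136, 221 and 265 CPM. Ltb, the lymphotoxin subunit that drives lymph node formation, had 144, 210.5 and 196 CPM and was seen in 11, 42 and 12 members. Emb, Trbc1, Sh2d2a, Nrgn and Dgat1, the last an enzyme of triglyceride synthesis, were in this set too.

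**Figure D3:**
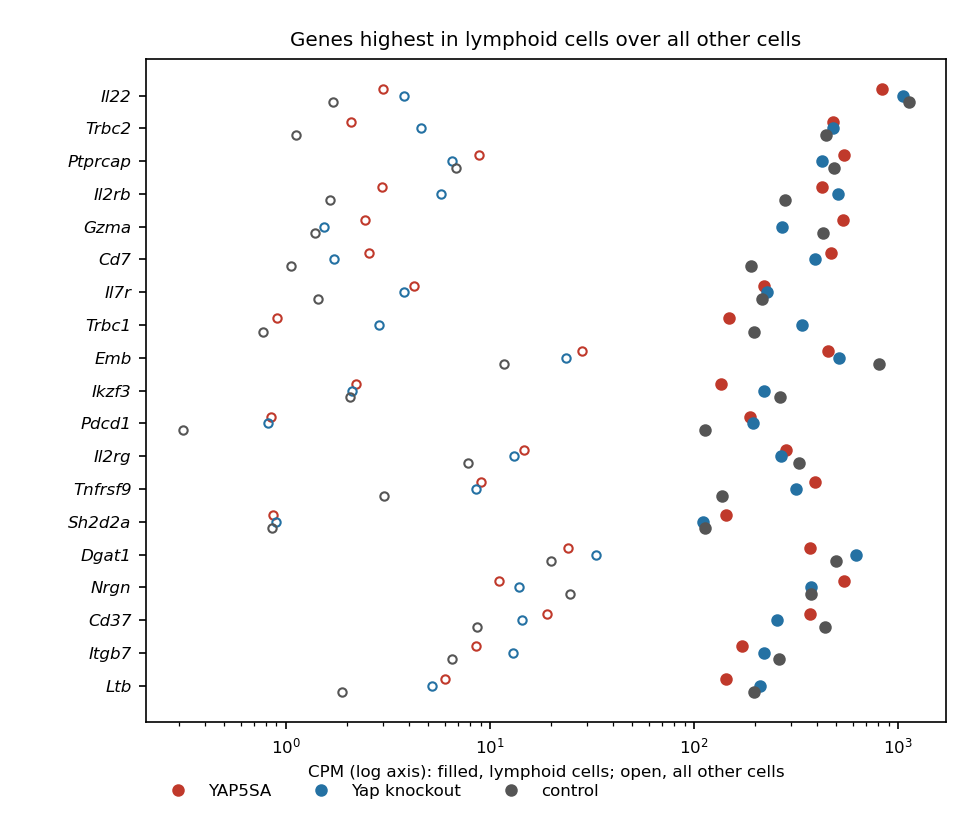
CPM (log axis) of genes among the 20 with the highest ratio of lymphoid to other cells, taken as the lowest ratio of the 3 libraries; filled points are lymphoid cells and open points all other cells of the same library. Each filled point lies to the right of its open point, for Il22 at 838 to 1139 against 1.70 to 3.77 CPM.

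Group 3 genes were found in lymphoid cells of each library. At least 2 of 15 genes of ILC3 and lymphoid tissue inducer cells were detected in 20 of 39 YAP5SA members (51.3%, interval 34.8 to 67.6), 53 of 74 Yap knockout members (71.6%, 60.0 to 81.5) and 18 of 29 control members (62.1%, 42.3 to 79.3). Collagen-rich cells reached the same list in 38.7%, 30.9% and 23.6% at median depths of 7594, 9216 and 7468 UMIs. The list also holds genes that other cells transcribe, such as Nrp1, with 78.2 to 123 CPM in all other cells. More specific genes were scarce outside lymphoid cells. Il23r, the receptor for the cytokine that triggers Il22, had 65.7 CPM in YAP5SA, 66.0 in Yap knockout and 113 in control lymphoid cells, against 0.457 to 0.832 CPM elsewhere. Il17f, a neutrophil-recruiting cytokine, had 49.3, 75.7 and 68.7 CPM in 3, 12 and 4 members. Tnfsf11, the ligand RANKL, had 49.3, 60.5 and 78.5 CPM in 9, 15 and 7 members. None of the 4 list genes that reached 100 CPM was 2-fold apart in either contrast.

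Group 2 genes were likewise found in each library. At least 2 of 15 ILC2 genes were found in 59.0% of YAP5SA, 62.2% of Yap knockout and 55.2% of control members, against 18.9%, 26.7% and 10.9% of collagen-rich cells. Gata3, the transcription factor of group 2 cells, had 45.2 CPM in YAP5SA, 146 in Yap knockout and 211 in control lymphoid cells, seen in 8, 20 and 9 members. Calca, a neuropeptide precursor that group 2 cells also make, had 41.1, 733 and 505 CPM, in 5, 16 and 8 members. Of the Yap knockout Calca UMIs, 68.3% lay in 1 cell, which had 252 Tagln UMIs and was outside the ILC2-like group described below. Areg, a growth factor for epithelium, had 61.6 CPM in YAP5SA, 249 in Yap knockout and 49.1 in control, with 35.9% of the Yap knockout UMIs in 1 cell. A group described below, led by epithelial, muscle and fibroblast genes, held 40 Areg UMIs in 3 cells. Arg1, an arginine-degrading enzyme, had 86.3, 162 and 118 CPM. Rora, a transcription factor that group 2 cells need, was seen in 34, 60 and 27 members at 838, 714 and 878 CPM, and other cells had 123 to 174 CPM of it. Il5, a cytokine for eosinophils, was singled out after its values were seen: 0 UMIs in YAP5SA, 79 in Yap knockout with 93.7% in 1 cell, and 13 in control. Of the ILC2 list, 2 of 4 genes measured were at least 2-fold lower in YAP5SA than in control (Gata3 and Calca), against 2.81% of all genes measured. In Yap knockout 1 of 7 was at least 2-fold higher (Areg), against 6.75%.

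NK cell and ILC1 genes were also found in members of each library. At least 2 of 19 listed genes were found in 19 YAP5SA (48.7%), 38 Yap knockout (51.4%) and 14 control members (48.3%), against 0.593%, 2.47% and 0.307% of collagen-rich cells. Ccl5, a chemokine, had 222 CPM in YAP5SA, 409.9 in Yap knockout and 132.5 in control lymphoid cells, in 7, 15 and 3 members; 1 cell held 88.9% of the control UMIs. Klrb1b, a receptor of the NK lectin family, had 82.2, 127 and 58.9 CPM, and Txk, a kinase of the Tec family, 136, 83.9 and 68.7 CPM. Gzmb, a death-inducing protease, was seen in 3, 6 and 1 members. Of NK receptors, Klrb1c, which encodes NK1.1, was seen in 0 YAP5SA, 6 Yap knockout and 3 control members. Klrk1 was seen in 4, 9 and 1, and Klrd1 in 2, 9 and 3. Another 3 receptor genes of the list, Ncr1, Klra4 and Klra8, had 0 UMIs in all 142 cells; they were singled out after their values were seen, and the 3-count limit allows up to 12.3 CPM in YAP5SA, 4.13 in Yap knockout and 14.7 in control. Ccl5 was the 1 of 4 measured genes at least 2-fold higher in Yap knockout, and 0 of 4 were 2-fold apart in YAP5SA.

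Genes of the B lineage were high in few cells. At least 2 of 16 listed genes were seen in 28.2% of YAP5SA, 10.8% of Yap knockout and 17.2% of control members. C1q-rich cells, a cell type that should lack them, reached 19.3%, 22.9% and 20.1%, and collagen-rich cells 4.84%, 5.35% and 3.83%. With each cell thinned to 1000 UMIs, the share was 6.34% of all lymphoid cells, against 0.974% of C1q-rich and 0.313% of collagen-rich cells. The unthinned share is therefore not read as a share of B cells. The surrogate light chain genes mark immature B cells, before a complete receptor is made. Vpreb3, one of that family, was seen in 3 YAP5SA, 2 Yap knockout and 2 control members with 36, 47 and 5 UMIs. Igll1, the other part of the surrogate chain, was seen in the same numbers of members with 14, 20 and 30 UMIs. Ighm, the first heavy chain class, had 275 CPM in YAP5SA, 92.2 in Yap knockout and 83.4 in control, and 59.7%, 40.3% and 70.6% of its UMIs lay in 1 cell. Of 7 B lineage genes measured, 4 were at least 2-fold higher in YAP5SA (Ighm, Ebf1, Vpreb3 and Cd79b) and Igll1 was lower, against 7.23% and 2.81% of all genes measured. Cd79a and Igll1, the 2 measured in Yap knockout, were at least 2-fold lower there, against 6.09%. Cd79a is a gene of the rule, so the shares and counts of this list are not independent of how the cells were chosen. With 6, 4 and 4 Cd79a-bearing cells, these are values of a handful of cells.

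Genes of gamma delta T cells and progenitors gave a mixed picture. At least 2 of 7 gamma delta genes were found in 6 of 39 YAP5SA, 17 of 74 Yap knockout and 5 of 29 control members. Zbtb16, a transcription factor that innate-like T cells share with innate lymphoid precursors, was seen in 18, 35 and 16 members. Trdc, the delta chain constant segment, was seen in 0, 3 and 2. Among progenitor genes, Tox, a factor needed early in innate lymphoid development, was at least 2-fold lower in both altered libraries, with 115 CPM in YAP5SA, 133 in Yap knockout and 324 in control. Sox4, an early lymphoid transcription factor, was at least 2-fold higher in both, at 168, 140.3 and 63.8 CPM; other cells had 184 to 395 CPM of Sox4. Runx3, a factor of cytotoxic and innate lymphocytes, had 193, 232 and 108 CPM and was past 2-fold in Yap knockout. Id2, which holds cells in the innate lineages, had 468, 333 and 530.0 CPM.

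**Figure D4:**
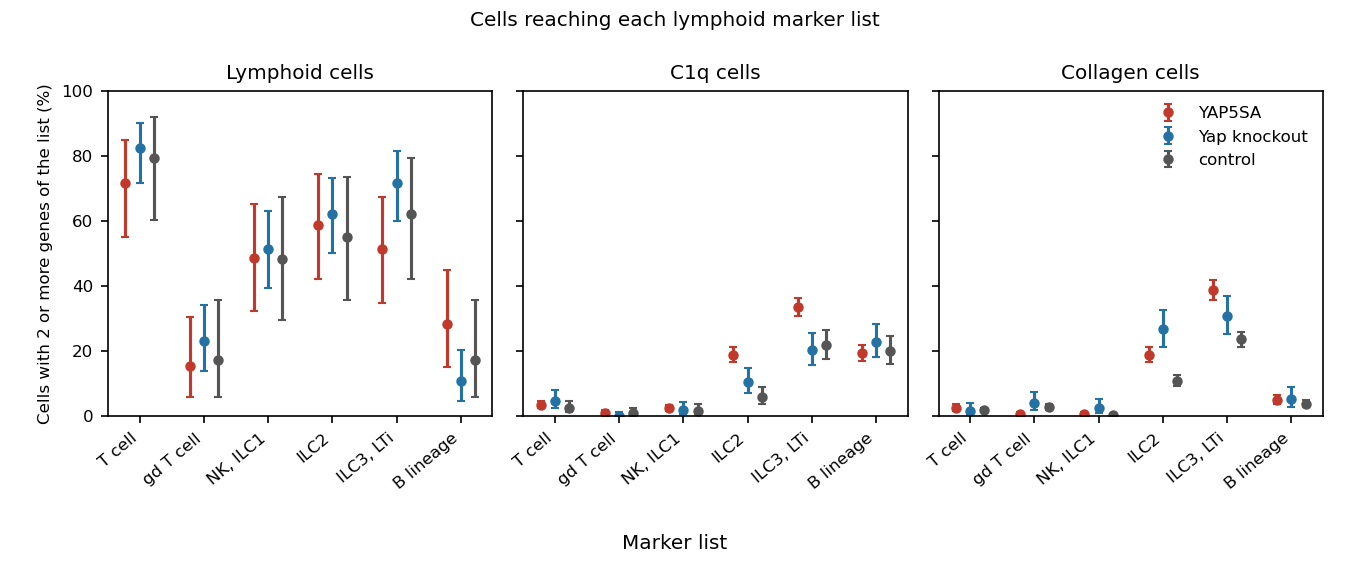
Share of cells (y axis, %) with 2 or more genes of each lymphoid marker list in lymphoid cells, C1q-rich cells and collagen-rich cells (panels) of the YAP5SA, Yap knockout and control libraries; bars are exact 95% counting intervals, gd is gamma delta and LTi lymphoid tissue inducer. In lymphoid cells the 3 libraries' intervals overlap for each list, and the B lineage share of lymphoid cells (28.2%, 10.8% and 17.2%) stands beside 19.3%, 22.9% and 20.1% of C1q-rich cells.

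Clustering the 142 cells on their own gave 9 groups, which describe the cells and test nothing, since the same genes formed them. Both ILC3 and lymphoid tissue inducer-like groups together held 45 cells. At resolution 1.0 they split by library. The first had 0 YAP5SA, 22 Yap knockout and 2 control cells and was led by Ppp1r3b, Il22, Ier5l, Cxcr5 and Tcf7. The second had 11 YAP5SA, 1 Yap knockout and 9 control cells and was led by Ccrl2, Gem, Il22, Il23r and Cd4. The split depended on the resolution. At 0.5 a single ILC3-like group held 14 YAP5SA, 27 Yap knockout and 11 control cells. At 1.5 ILC3-like groups held 0, 19 and 1, then 9, 1 and 7, then 1, 5 and 1 cells. The ILC2-like group held 2 YAP5SA, 10 Yap knockout and 7 control cells, and the NK and ILC1-like group 1, 11 and 0. An unnamed group of 7, 4 and 4 cells was led by Cd7, Ctsw and Il12rb2, and 8 genes of the NK and ILC1 list were raised in it. At resolution 0.5 the NK and ILC1-like group held 8 YAP5SA, 18 Yap knockout and 6 control cells, and at resolution 1.5 again 1, 11 and 0. The B lineage-like group held 3, 2 and 2 cells. In the other groups, genes of other cell types led. Another 6 cells were mast cell and basophil-like, and each came from the Yap knockout library. At resolution 1.5 a further group of this name, led by Mcpt1, Cma1 and Cpa3, held 3 YAP5SA, 8 Yap knockout and 0 control cells. Mcpt8, a basophil protease, had 0 UMIs in YAP5SA members, 172 UMIs in 6 Yap knockout members and 5 UMIs in 1 control member. A further group of 15 cells, 5 from YAP5SA, 10 from Yap knockout and 0 from control, was led by MHC class II genes and Cd74. Of these, 5 cells had 39 to 88 Cd74 UMIs each, and the other 10 had 0 to 6. The group was mixed: Trbc1 had 19 UMIs in 3 of its cells, Gzma 101 UMIs in 3 and Siglech 37 UMIs in 4. The remaining 23 cells (10 YAP5SA, 8 Yap knockout and 5 control), with a median of 11180 UMIs, were led by epithelial, muscle and fibroblast genes such as Cldn4, Tagln and Dcn. Of these 23, 13 had at least 3 leukocyte genes and 5 had doublet scores in the top 6% of their library. Without the last 3 groups, 24 YAP5SA, 50 Yap knockout and 24 control members stay, and the share ratios to control become 0.816 for YAP5SA and 2.95 for Yap knockout. Some of the cells left out in this way may be lymphoid.

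In YAP5SA lymphoid cells, 126 of 1742 genes measured (7.23%) were at least 2-fold higher than in control lymphoid cells and 49 (2.81%) at least 2-fold lower. In the other cells of these libraries the same shares were 6.38% and 3.75%. Scaling by median ratios in place of total UMIs gave 102 higher and 69 lower. The genes named by a fixed rule as most higher were mast cell proteases and MHC class II genes. Mcpt2 had 74 UMIs (304 CPM) in 4 YAP5SA members and 0 in control, at least 20.6-fold higher, and 95.9% of the UMIs were in 1 cell. Cma1 had 25 UMIs in 4 YAP5SA members with 88% in 1 cell, and 0 in control. H2-Ab1, a class II chain, had 181 CPM in YAP5SA and 24.5 CPM in control lymphoid cells, a ratio of 7.37 (2.93 to 23.8), in 12 and 5 members. Cd74, the class II chaperone, had 476 and 78.5 CPM, and H2-Eb1 164 and 19.6 CPM. Without the groups led by other cell types, the log2 ratio was 0.056 for H2-Eb1, 0.67 for Cd74 and 1.00 for H2-Ab1, against 2.56, 2.46 and 2.47 over all members, and for Mcpt2 and Cma1 it was 1.67 and 0.79. In all other cells Cd74 also stood higher in YAP5SA, at 387 CPM against 163 CPM in control.

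Some of the higher genes were more evenly spread. Malt1, a scaffold of NF-kB signalling below antigen receptors, had 34 UMIs in 16 of 39 YAP5SA members and 2 UMIs in 2 of 29 control members, a ratio of 14.2 (3.65 to 122). It also differed in the other cells, at 55.7 CPM in YAP5SA and 11.9 CPM in control. Osbpl8, a lipid transfer protein, had 168 and 24.5 CPM, in 18 and 4 members, against 50.6 and 40.0 CPM in other cells. Il1r2, a decoy receptor for interleukin 1, had 160.2 and 29.4 CPM, and its other-cell values were 61.9 and 7.65 CPM. Cecr2, a chromatin protein, had 67.6% of its 34 YAP5SA UMIs in 1 cell.

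The lowest genes in YAP5SA lymphoid cells included group 2 genes. Calca was 12.3-fold lower (6.43 to 26.4) and Gata3 4.67-fold lower (2.37 to 10.0). The ILC2-like group made up 2 of 39 YAP5SA and 7 of 29 control members, so fewer such cells and a lower level per cell cannot be told apart in these sums. Icos, a costimulatory receptor high on group 2 cells, had 73.9 CPM in 10 of 39 YAP5SA members and 245 CPM in 11 of 29 control members, 3.32-fold lower (1.90 to 6.04). Slc7a5, an amino acid transporter, had 20.5 and 118 CPM, in 4 and 10 members. Cxcl2, a neutrophil chemokine, had 131 CPM in 17 of 39 YAP5SA members and 682 CPM in 8 of 29 control members, while in the other cells it was higher in YAP5SA, at 873 CPM, against 203 CPM in control. One control cell held 54.0% of the control Cxcl2 UMIs, and the log2 ratio was -1.25 with each cell weighted equally, against -2.29 for the sums. Rgs6 and Tubb3 had 86.1% and 82.4% of their control UMIs in 1 cell, and without the groups led by other cell types the log2 ratio of Tubb3 was -0.32. Nav2, Ttc28 and Thsd4 were also among the 10 lowest. Within the ILC3-like groups alone, 11 YAP5SA against 11 control cells, the log2 ratio of Icos was 0.67, of Cd74 -0.99 and of H2-Eb1 -0.70, each opposite to its sign over all members.

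In Yap knockout lymphoid cells, 112 of 1659 genes (6.75%) were at least 2-fold higher than in control and 101 (6.09%) at least 2-fold lower, against 5.43% and 6.52% in the other cells. Median-ratio scaling gave 128 higher and 84 lower. The 6 highest named genes belong to epithelium: Dmbt1, Cldn4, Cldn7, Tff2, Prap1 and Agr2. For each, 48.2% to 53.5% of the Yap knockout UMIs lay in 1 cell. Dmbt1, a mucosal scavenger protein, had 159 UMIs in 10 of 74 Yap knockout members and 0 in control. Tff2, a trefoil peptide of gastric neck cells, had 197 UMIs in 13 Yap knockout members and 2 UMIs in 2 control members. Of blood cell genes, Csf2rb, the shared receptor chain for interleukin 3 and related cytokines, had 111 CPM in Yap knockout and 9.81 CPM in control lymphoid cells, in 15 and 1 members, a ratio of 11.4 (3.04 to 95.3). Hdc, the enzyme that makes histamine, had 220.1 and 34.4 CPM, in 12 and 4 members. Of its 160 Yap knockout UMIs, 40% lay in 1 cell of the group led by MHC class II genes, and the 6 mast cell and basophil-like members held 91. Zfas1, a noncoding RNA that hosts small nucleolar RNAs, was widely spread, with 113 UMIs in 42 of 74 Yap knockout members and 5 UMIs in 4 of 29 control members, a ratio of 6.34 (2.64 to 19.9), against 103 and 66.8 CPM in other cells. Cited4, a transcriptional cofactor, had 79 UMIs in 17 Yap knockout members, 46.8% of them in 1 cell, and 1 UMI in control.

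Among the lowest genes in Yap knockout lymphoid cells were Rgs6, Cxcl2, Thsd4 and Nav2, named in YAP5SA too; both contrasts share the same control cells. Cxcl2 had 147 CPM in Yap knockout lymphoid cells, against 682 CPM in control. Gclc, which starts glutathione synthesis, had 35.8 and 137 CPM, in 20 and 10 members, 3.84-fold lower (2.17 to 6.82). Dhx40, a helicase, Rapgef2, an activator of Rap proteins, and Sulf2, a sulfatase, had 60.5, 79.8 and 39.9 CPM in Yap knockout, against 201, 226 and 123 CPM in control; 1 control cell held 61.0% of the Dhx40 and 54.3% of the Rapgef2 UMIs. Cd79a, a gene of the rule, had 27.5 and 118 CPM.

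**Figure D5:**
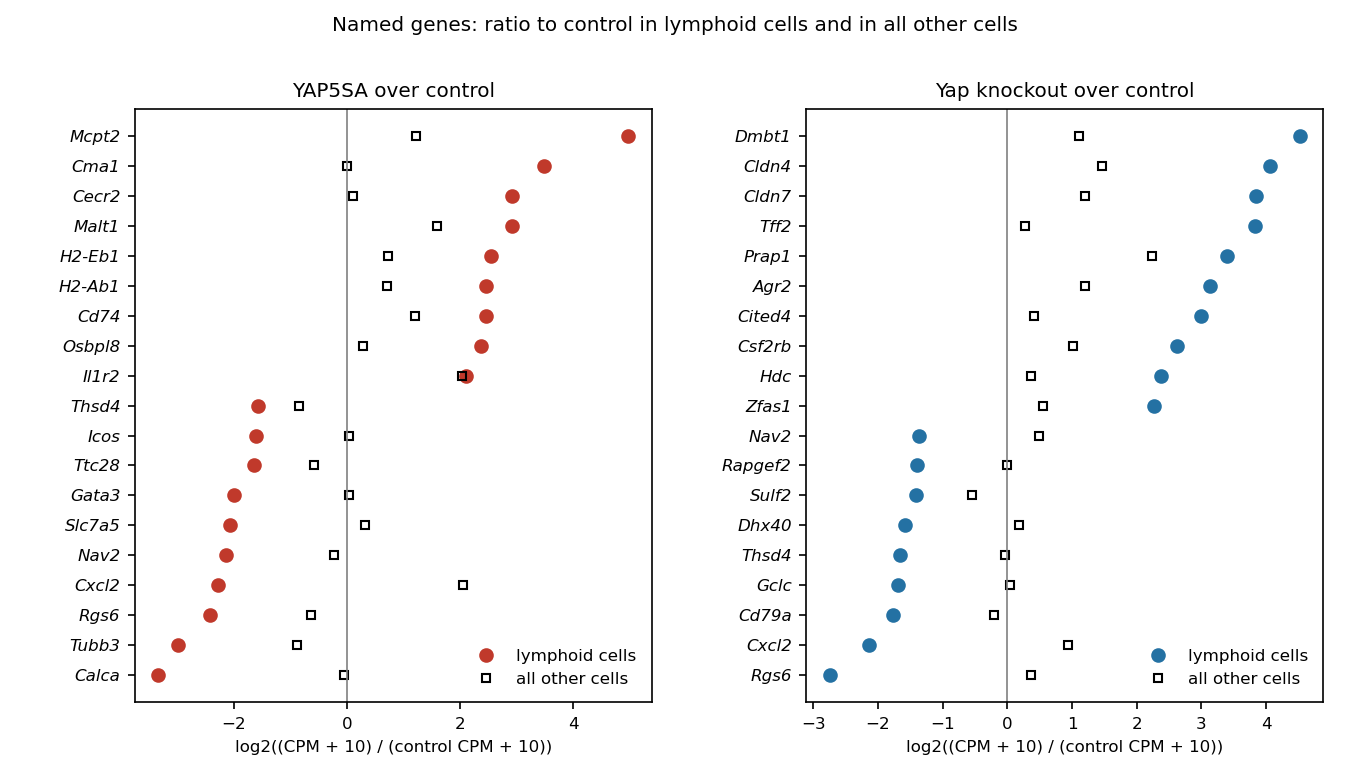
Log2 ratio to control, with 10 CPM added to both sides, of named genes among the 10 highest and 10 lowest in YAP5SA (left) and Yap knockout (right); filled circles are lymphoid cells and open squares all other cells. For Cxcl2 the signs differ in both panels (-2.29 in YAP5SA and -2.14 in Yap knockout lymphoid cells). For most named genes the squares lie nearer 0 than the circles, which the choice of genes by the circles' values favours.

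Pathway lists are read against the shares over all genes measured (7.23% higher and 2.81% lower in YAP5SA, 6.75% and 6.09% in Yap knockout). None of 11 measured leukocyte genes was 2-fold apart in either contrast. Of receptors for the common gamma chain family and their signalling genes, 1 of 10 was past 2-fold in YAP5SA, Stat5b higher, and 0 of 11 in Yap knockout. Il7r, a gene of this list and of the rule, had 222 CPM in YAP5SA, 228 in Yap knockout and 216 in control. Of cytotoxic granule genes, a list that holds Nkg7 of the rule, 0 of 5 were 2-fold apart in either contrast. Srgn, the granule core protein, had 875, 1014 and 908 CPM. Among effector cytokines, 0 of 4 were past 2-fold in YAP5SA and 2 of 6 in Yap knockout, Areg and Ccl5 higher.

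Homing and activation genes held a few members past 2-fold. Selplg, the selectin ligand, had 230.0 CPM in YAP5SA, 318 in Yap knockout and 128 in control, seen in 22, 54 and 11 members, and was at least 2-fold higher in Yap knockout. Klf2, which keeps lymphocytes quiescent and circulating, had 238, 70.2 and 231 CPM and was at least 2-fold lower in Yap knockout. In other cells Klf2 also stood lower in Yap knockout, at 104 CPM against 403 CPM in control. Ccr7, the receptor that guides cells to lymph nodes, had 136, 105 and 49.1 CPM and passed 2-fold in YAP5SA. Of immediate early and heat shock genes, 0 of 15 were past 2-fold in YAP5SA and 3 of 15 were lower in Yap knockout, among them Jund, at 647 CPM against 1521 CPM in control. Of MHC class I genes 0 of 4 and 0 of 5 passed 2-fold. B2m, the class I light chain, had 320.4, 598 and 294 CPM, a ratio of 2.03 for Yap knockout that is under 2-fold once 10 CPM are added.

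Lists for proliferation, metabolism, interferon and YAP targets are read against the same shares. Of cell cycle genes, 0 of 6 in YAP5SA and 0 of 5 in Yap knockout were past 2-fold. Mki67, a protein of dividing cells, was seen in 17 of 39, 28 of 74 and 8 of 29 members. None of 12 glycolysis and hypoxia genes passed 2-fold in YAP5SA, and 1 of 11 did in Yap knockout, Pfkp higher. None of 16 oxidative phosphorylation genes did in either contrast. Of interferon genes, 2 of 3 were higher in YAP5SA (Bst2 and Ifi27l2a) and Isg15 lower, with 67.7% of the control Isg15 UMIs in 1 cell. Targets of YAP and its DNA-binding partners TEAD summed to 518 CPM in YAP5SA, 465 in Yap knockout and 486 in control lymphoid cells, and 0 of 3 and 0 of 2 measured genes were 2-fold apart. Ccn1, the best known of them, had 53.4, 122 and 103 CPM.

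Genes of other cell types differed along with these contrasts, and their part in them was not tested. Of monocyte and dendritic cell genes, 6 of 6 measured in YAP5SA and 4 of 5 in Yap knockout were at least 2-fold higher than in control, against 7.23% and 6.75% of all genes measured, and the list of 14 genes summed to 1544 CPM in YAP5SA, 1259 in Yap knockout and 393 in control. Of mast cell and basophil genes, 2 of 3 and 4 of 5 were higher, against the same 7.23% and 6.75%, with sums of 472, 1421 and 250.3 CPM. Of 6 fibroblast genes, 0 were 2-fold apart in YAP5SA and 6 were lower in Yap knockout, against 6.09% of all genes. Their list summed to 6326, 1058 and 9908 CPM in lymphoid cells and to 10340, 3838 and 20560 CPM in other cells. Smooth muscle genes were lower in YAP5SA for 6 of 7, against 2.81% of all genes, with sums of 1955, 5563 and 4412 CPM. Epithelial genes were higher for 3 of 4 in YAP5SA and 5 of 6 in Yap knockout, against 7.23% and 6.75%. Their sums were 850.3, 1948 and 697 CPM. Haemoglobin and other red cell genes took 20850 CPM in YAP5SA, 1732 in Yap knockout and 98110 in control lymphoid cells; in 1 control cell they were 78.8% of UMIs and in 1 YAP5SA cell 31.3%. Krt19, the 1 mesothelium gene measured, was higher in both contrasts, and Tubb3, the 1 gene of enteric neurons, lower. No macrophage, neutrophil, red cell or endothelium gene entered the counts; macrophage genes summed to 312, 136 and 132.5 CPM in lymphoid cells, against 2107, 1083 and 997 CPM in other cells. Clec9a of dendritic cells was at 0 in the lymphoid cells of all 3 libraries.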

How the data were processed

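Hindstomachs were dissociated with trypsin and DNase I, per the labels' protocols, and 3′ tags were counted by droplet single-cell sequencing. The authors deposited raw UMI counts per gene and cell, 1 matrix per library, made with PISA 1.0 per the file headers; STAR and GRCm39 come from the submitters' processing notes, and the release of the gene annotation is not stated there. Libraries held 65843658 UMIs in 9439 cells (YAP5SA), 40857358 in 5739 (Yap knockout) and 48910624 in 7692 (control), each cell with at least 1000 UMIs. Of these, 9029, 5201 and 7372 cells passed the filters.

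Counts of the lymphoid cells were summed per library and scaled to CPM. Fold changes are log2((CPM + 10)/(CPM + 10)) for genes at 100 CPM or more on either side. Ratios carry exact conditional Poisson and shares exact Clopper-Pearson 95% intervals, which, like the 3-count floor for genes at 0 over a library's lymphoid cells, cover counting error only. Ratio intervals were tried on simulated Poisson counts, which follow the model of the intervals. Their coverage for UMIs gathered in few cells was not tested. C1q-rich cells had at least 10 C1q UMIs, and collagen-rich cells at least 10 collagen UMIs (Col1a1, Col1a2, Col3a1), a Pdgfra UMI and no Ptprc.

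The text names the 10 highest and 10 lowest genes per contrast seen in at least 10% of the lymphoid cells and no lower there than in other cells of the library where they were higher, the 20 highest over other cells, and genes of 34 lists, leaving out mitochondrial, ribosomal, haemoglobin, sex-linked and unnamed-model genes. The lymphoid cells and lists were chosen with earlier results of these data known. A few genes that met these rules are not reported here. The doublet caller's own threshold marked 0 cells, so the top 6% of scores stood for doublets, and 3 YAP5SA, 6 Yap knockout and 2 control lymphoid cells were among them. They were kept. Clusters used 1500 variable genes, 15 components, 10 neighbours and resolution 1.0. Clustering and doublet scores came from scanpy 1.11.5 with igraph 0.11.9, intervals from scipy 1.17.1 and tables from pandas 2.3.3 under Python 3.11.15.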

Additional observations from a re-analysis of the deposited data

How the results depend on the processing

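No paired analysis was possible because each genotype is 1 library, and for the same reason no replicate could be left out. Removing the clusters led by other cells, taking ILC3-like clusters alone, requiring leukocyte genes and lifting the C1q limit were chosen after seeing the data. The cause of each difference below was not tested. The YAP5SA to control ratio of shares became 2.45 with cells thinned to 1000 UMIs, 0.350 among cells with Ptprc and 0.436 with C1q at 0 UMIs, and the Yap knockout ratio became 2.06 among cells with Ptprc. With 3 or more list genes required, the shares of all lymphoid cells were 64.8% T cell, 2.11% gamma delta, 35.2% NK and ILC1, 40.1% ILC2, 45.1% ILC3 and 8.45% B lineage, and with thinned cells 30.3%, 0.704%, 25.4%, 20.4%, 26.8% and 6.34%. By named cluster they were 8.45% NK and ILC1, 13.4% ILC2, 31.7% ILC3 and 4.93% B lineage, and no cluster was named for T cells. At resolution 0.5 the named clusters held 32 NK and ILC1-like, 11 ILC2-like and 52 ILC3-like cells, and none was named for B cells. Of 175 genes past 2-fold in YAP5SA, the count became 533 at a 50 CPM floor, 1926 with no floor, 481 in members with Ptprc, 280 without clusters led by other cells and 642 in ILC3-like clusters. The 213 in Yap knockout became 508, 1546 and 387 under the first 3 of these and 537 in ILC3-like clusters. Many of the genes changed as well. Of the 175, 97 kept a call of the same sign without clusters led by other cells and 62 in ILC3-like clusters. Of the 213, 113 and 89 did. Of 394 alternative values for single named genes, 352 kept their sign at 2-fold or more, 28 kept it under 2-fold and 14 reversed. The 50 CPM floor and the lack of a floor change only which genes are counted. Their values therefore repeat the main ones and lie among the 352 by design. The named genes were also picked as the most extreme in the same sums, so these counts are no measure of stability. In YAP5SA the log2 ratio of Mcpt2 was 0.99 in members with Ptprc, against 4.97 in all members, and that of Cecr2 was 0.60 without Cd79a-bearing members, against 2.92. In ILC3-like clusters the YAP5SA log2 ratios reversed to -0.70 for H2-Eb1, -0.99 for Cd74, 3.08 for Rgs6, 1.00 for Cxcl2, 0.033 for Nav2 and 0.67 for Icos, and the Yap knockout ones to -0.60 for Tff2, -0.90 for Hdc, 0.60 for Rgs6 and 1.00 for Dhx40. In members with Ptprc, Yap knockout gave -0.20 for Prap1 and 2.14 for Cd79a. Without clusters led by other cells it gave -0.23 for Agr2 and -0.70 for Hdc. With 29 control lymphoid cells, a gene with no UMI may stand at up to 14.7 CPM.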
